A study of Mus musculus with 6 samples.

Results

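The BCL2 family decides at the mitochondrion whether a cell lives or dies, and 10 of its core genes were followed here in fetal mouse ovaries exposed to analgesics in utero. The genes were chosen by name, with earlier results of these data known. The 10 were the survival genes Bcl2, Bcl2l1 and Mcl1, the effectors Bax and Bak1, and the BH3-only genes Bid, Bad, Bbc3, Pmaip1 and Bcl2l11. They were 10 of the 48709 genes in the deposited count table, and all 10 passed the expression filter of the test. RNA came from 13.5 days post coitum (dpc) ovaries of wild-type CD1 mice, an outbred strain, with 3 control and 3 APAP + IBU libraries, each made from a pool of embryonic gonads. From 10.5 dpc until 13.5 dpc, the dams were gavaged 4 times a day, 3 h apart, with acetaminophen (APAP, 30 mg/kg/day) and ibuprofen (IBU, 15 mg/kg/day) in turn. Control females received the ethanol diluent on the same schedule. The exposed libraries carry IBU alone in their titles but APAP+IBU as their exposure label, which is followed here.

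In healthy cells the survival proteins BCL2, BCL-XL (encoded by Bcl2l1) and MCL1 hold the effectors BAX and BAK in check. Stress raises or activates BH3-only proteins, which occupy the groove of the survival proteins or act on the effectors directly, and the effectors then open the outer mitochondrial membrane, release cytochrome c and start the caspase cascade. The family is well known in the ovary, where many germ cells die before birth and during follicle formation, where loss of Bax spares oocytes, and where PUMA (Bbc3) and NOXA (Pmaip1) act downstream of the p53 family after DNA damage. Bulk RNA of a whole gonad mixes germ and somatic cells, so that fewer cells of a type and less RNA per cell cannot be told apart in any value below.

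The feature that makes these genes one family is the short BH3 helix, and its coding sequence is shown for 9 of them because it is what the survival, effector and BH3-only groups share. A script found the core once in each reference coding sequence (GENCODE M21, GRCm38, the assembly also called mm10). All 9 stretches lie in coding exons, at chr1:106712569-106712616 on the minus strand for Bcl2, chr2:152829691-152829738 on the minus strand for Bcl2l1, chr3:95659421-95659468 on the plus strand for Mcl1, chr7:45465991-45466038 on the minus strand for Bax and chr17:27022525-27022572 on the minus strand for Bak1. Among the BH3-only genes they lie at chr6:120897283-120897330 on the minus strand for Bid, chr19:6950777-6950824 on the plus strand for Bad, chr7:16313758-16313805 on the plus strand for Bbc3 and chr2:128147135-128147182 on the plus strand for Bcl2l11. Each line gives 48 bases, 5′ to 3′ on the coding strand, and the capitals mark the 6 codons of the core, from the conserved leucine codon to the conserved aspartate codon.
Bcl2: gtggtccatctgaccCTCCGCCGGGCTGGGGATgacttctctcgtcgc
Bcl2l1: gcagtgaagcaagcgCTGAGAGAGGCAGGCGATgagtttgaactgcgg
Mcl1: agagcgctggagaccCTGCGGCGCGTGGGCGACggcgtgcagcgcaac
Bax: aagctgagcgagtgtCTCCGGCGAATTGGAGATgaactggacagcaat
Bak1: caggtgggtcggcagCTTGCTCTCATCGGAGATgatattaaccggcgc
Bid: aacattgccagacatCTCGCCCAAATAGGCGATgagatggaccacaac
Bad: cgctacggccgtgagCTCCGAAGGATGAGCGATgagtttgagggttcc
Bbc3: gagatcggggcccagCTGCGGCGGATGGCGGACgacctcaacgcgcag
Bcl2l11: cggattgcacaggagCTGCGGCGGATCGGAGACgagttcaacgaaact
The core starts at codon 63 of 192 in the Bax coding sequence and at codon 151 of 204 in that of Bad.

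Total counts ran from 37811968 to 48954631 per library, so that even the least abundant of the 10 genes, Bbc3 and Pmaip1, had between 63 and 169 reads in each library. The libraries labelled replicate 3 stood apart in both groups. In CPM (a gene's count scaled to the library total after TMM normalisation), 10 liver markers summed to 1890 in control replicate 3 and 3060 in exposed replicate 3, against 177 to 537 in the other 4 libraries. Transcripts rich in G and C were also shifted between libraries. The 4021 tested genes with at least 55.4% GC lay above their own mean over the 6 libraries in control replicates 1 and 2 (median 0.34 and 0.16 on the log2 scale) and exposed replicate 3 (0.07). They lay below it in control replicate 3 (-0.32) and exposed replicates 1 and 2 (-0.16 and -0.08). Summed germ cell markers ran from 948 to 1190 CPM over the libraries, and 8 of 8 were detected in every library, as were 10 of 10 ovarian somatic markers. The summed ovarian somatic level was 1690, 1470 and 1150 CPM in controls and 1360, 1440 and 1330 CPM after exposure. The 12 spermatid markers, foreign to a fetal ovary, summed to 164 to 275 CPM in controls and 119 to 141 CPM after exposure, with Acrv1 at 0 in 2 exposed libraries. Odf2, which other tissues also express, made up 115 to 136 CPM of each sum, and Prm1, a protamine gene, was at 35.9, 7.66 and 5.71 CPM in controls and at 0.789, 0.197 and 0.26 CPM after exposure. With all 6 libraries 0 of the 12 passed edgeR's test, 11 had an unadjusted p under 0.05 and DESeq2 called 10, all lower. Blood genes varied as well, with 9 erythroid markers summing to 5450, 12700 and 8760 CPM in controls and 2330, 4210 and 8150 CPM after exposure, whereas macrophage (40.9 to 62.5 CPM), endothelial (356 to 471 CPM) and mesonephros sums (190 to 221 CPM) had narrower ranges. The part of these other cells in the results was not tested. Each comparison is therefore given for all 6 libraries, then for replicates 1 and 2, and then for replicates 1 and 2 after each library was corrected for transcript length and GC content.

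With all 6 libraries, none of the 10 genes passed the test for a difference between exposed and control ovaries. By edgeR's quasi-likelihood test 0 of 10 had an adjusted p under 0.05, against 0% of all 20167 genes tested (0 genes), the smallest adjusted p among the 10 was 0.698, and 0 of 10 had an unadjusted p under 0.05 (6.22% of all genes tested, 1254 genes). DESeq2 also called 0 of 10, against 0.952% of all genes (0.858% lower and 0.0942% higher), and 0 of 10 had an unadjusted p under 0.05 (7.64%). With the correction for length and GC content in all 6 libraries, 0 of 10 passed and 0 of 10 had an unadjusted p under 0.05 (9.44% of all genes). The means of 9 of the 10 were lower after exposure, with a median log2 fold change of -0.20 against 0.00 over all genes tested. The 3 exposed libraries were all below the 3 control libraries for Mcl1 and Bid, 2 of 10, whereas this was so for 5.92% of all genes tested, and for 0 of 10 all 3 exposed libraries were above (4.78% of all genes, 10.7% in either direction).

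**Figure D1:**
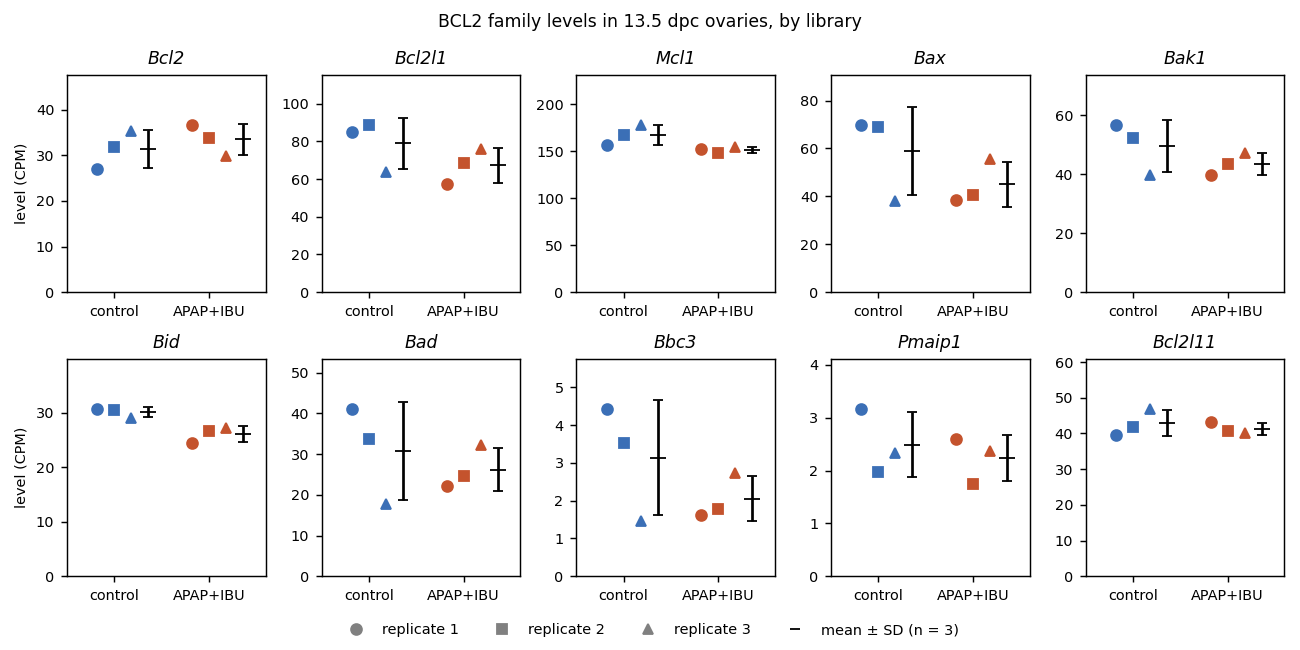
Levels (CPM) of the 10 genes in each library of control (blue) and APAP + IBU (orange) ovaries, with symbols for replicates 1 to 3 and the mean ± SD (n = 3) as a black bar. Control replicate 3 sits with exposed replicates 1 and 2 for Bax and Bbc3, and the groups are separate for Mcl1 and Bid.

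Of the survival genes, Mcl1 was the most abundant. Its product is a short-lived guardian that many cells must keep renewing. Mcl1 stood at 157, 167 and 178 CPM in control replicates 1, 2 and 3 and at 152, 148 and 154 CPM in the exposed ones. The groups did not overlap, and the exposed libraries were close together, but the gap was small, with a mean of 167 ± 10.6 CPM (SD, n = 3) in controls and 151 ± 3.44 CPM after exposure. The exact two-sided permutation test gave p = 0.1, the smallest that 3 against 3 libraries allow, and the log2 fold change was -0.15 (SE 0.111, adjusted p = 0.704 in edgeR's test, 95% interval -0.40 to 0.11).

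Bcl2l1 encodes BCL-XL, the survival protein on which primordial germ cells are known to depend. It was at 84.8, 88.8 and 63.6 CPM in the controls and at 57.2, 68.5 and 75.9 CPM after exposure. Control replicate 3 lay below exposed replicates 2 and 3, so the groups overlapped. The log2 fold change over the 6 libraries was -0.23 (SE 0.169, adjusted p = 0.7 in edgeR's test). Bcl2, the founding member, was the one gene of the 10 with a higher mean after exposure. Its levels were 26.9, 31.8 and 35.4 CPM in controls and 36.7, 33.9 and 29.9 CPM after exposure, a full overlap, with a log2 fold change of 0.09 (SE 0.155, adjusted p = 0.839 in edgeR's test).

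Bax, the effector that moves from the cytosol to the mitochondrion, had the widest spread of the survival and effector genes. Its levels were 69.9, 69.1 and 37.9 CPM in controls and 38.7, 40.5 and 55.7 CPM after exposure. Control replicates 1 and 2 were high, control replicate 3 was the lowest library of all 6, and exposed replicate 3 lay between. Controls averaged 59 ± 18.3 CPM (SD, n = 3) and exposed ovaries 45 ± 9.31 CPM, and the log2 fold change was -0.39 (SE 0.255, adjusted p = 0.699 in edgeR's test, 95% interval -0.98 to 0.20). Bak1, the effector that resides on the mitochondrion, had the same order of high and low libraries with a smaller range, at 56.7, 52.1 and 39.6 CPM in controls and 39.7, 43.3 and 47.2 CPM after exposure. Its log2 fold change was -0.19 (SE 0.163, adjusted p = 0.723 in edgeR's test).

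Among the BH3-only genes, Bid encodes the link from death receptors to the mitochondrion. Its levels were 30.7, 30.5 and 29 CPM in controls and 24.5, 26.7 and 27.1 CPM after exposure. These groups did not overlap and were tight, with means of 30.1 ± 0.897 CPM (SD, n = 3) and 26.1 ± 1.43 CPM, and the exact two-sided permutation test again gave p = 0.1. The log2 fold change of Bid was -0.20 (SE 0.128, adjusted p = 0.698 in edgeR's test, 95% interval -0.50 to 0.09).

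Bad, whose protein is inactivated when survival kinases phosphorylate it, was at 41.1, 33.6 and 17.7 CPM in controls and at 22.1, 24.5 and 32.1 CPM after exposure. Bbc3 encodes PUMA, and it was at 4.43, 3.53 and 1.45 CPM in controls and at 1.62, 1.79 and 2.73 CPM after exposure. In both genes control replicate 3 was the lowest library of the 6 and control replicate 1 the highest, a 2.33-fold range for Bad and a 3.05-fold range for Bbc3, the widest of the 10. The log2 fold changes were -0.23 (SE 0.3, adjusted p = 0.795 in edgeR's test) for Bad and -0.62 (SE 0.427, adjusted p = 0.699 in edgeR's test) for Bbc3, whose 95% interval ran from -1.60 to 0.37.

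Pmaip1, which encodes NOXA, the partner of MCL1, was at 3.17, 1.98 and 2.33 CPM in controls and at 2.6, 1.75 and 2.37 CPM after exposure. Bcl2l11 encodes BIM, which is controlled by growth factor withdrawal, and it was at 39.7, 41.9 and 46.9 CPM in controls and at 43.2, 40.6 and 40.1 CPM after exposure. The groups of both genes overlapped. Bcl2l11 was the steadiest of the 10, with a 1.18-fold range over the 6 libraries and a log2 fold change of -0.05 (SE 0.125, adjusted p = 0.887 in edgeR's test).

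Per kilobase of exon, which allows levels of different genes to be compared, Mcl1 led the 10 genes in control ovaries with 49 ± 3.09 CPM per kb (SD, n = 3). It was followed by Bax with 37.4 ± 11.6 CPM per kb, Bak1 with 20.6 ± 3.68, Bcl2l1 with 17.2 ± 2.95 and Bad with 12 ± 4.68 CPM per kb. Bid stood at 8.47 ± 0.253 CPM per kb, Bcl2l11 at 5.34 ± 0.461, Bcl2 at 3.43 ± 0.464, Bbc3 at 1.48 ± 0.72 and Pmaip1 at 0.913 ± 0.225 CPM per kb. Neighbours in this order whose levels overlapped within 1 SD were Mcl1 and Bax, Bak1 and Bcl2l1, Bcl2l1 and Bad, Bad and Bid, and Bbc3 and Pmaip1. In exposed ovaries the order was the same, from Mcl1 with 44.3 ± 1.01 CPM per kb down to Pmaip1 with 0.82 ± 0.162. Survival transcripts were thus mostly Mcl1, and the PUMA and NOXA genes were the lowest of the set. The lengths join the exons of all annotated isoforms, so genes with long rarely used exons are understated.

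In replicates 1 and 2, without the libraries that stood apart in liver markers, 5 of the 10 genes were lower in exposed than in control ovaries and 0 were higher. The share of all 20633 genes tested that passed was 27.2%, with 12.9% lower and 14.2% higher. The same 5 had an unadjusted p under 0.05 (41% of all genes). Both effectors fell, as did the survival gene Bcl2l1 and the BH3-only genes Bad and Bbc3. Bax had the clearest change, from 69.5 ± 0.524 CPM (SD, n = 2) in controls to 39.6 ± 1.25 CPM after exposure, a log2 fold change of -0.79 (SE 0.092, adjusted p = 0.00623 in edgeR's test). Bbc3 had the largest, from 3.98 ± 0.635 to 1.7 ± 0.123 CPM, a log2 fold change of -1.21 (SE 0.267, adjusted p = 0.018 in edgeR's test). Bad fell by 0.66 on the log2 scale (adjusted p = 0.014), Bcl2l1 by 0.45 (adjusted p = 0.0236) and Bak1 by 0.37 (adjusted p = 0.0358). DESeq2 called the same 5, against 28.3% of all genes tested (14.1% in each direction), and 5 of 10 had an unadjusted p under 0.05 (36.9%).

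Some cell type markers were also called in these 4 libraries, against 27.2% of all genes tested (12.9% lower and 14.2% higher). Germ cell markers (2 of 8 higher and 4 lower) and spermatid markers (10 of 12 lower) exceeded this share. Ovarian somatic (2 of 10), macrophage (1 of 5), endothelial (1 of 5) and liver markers (1 of 10) did not. Of 8 germ cell markers, Dazl (0.68, adjusted p = 0.00632 in edgeR's test) and Ddx4 (0.32, adjusted p = 0.0429) were higher after exposure. Pou5f1, Dppa3, Dnd1 and Dppa5a were lower, with log2 fold changes of -0.95, -0.99, -1.07 and -0.70. Of 10 ovarian somatic markers, Wnt4 (-0.45, adjusted p = 0.0151) and Amhr2 (-0.49, adjusted p = 0.0294) were lower. Macrophage markers summed to 55.8 and 61.8 CPM in controls and to 42 and 40.9 CPM after exposure, with C1qa at -1.01 (adjusted p = 0.00785), and the endothelial marker Pecam1 was at -0.35 (adjusted p = 0.0404). Of the remaining lists, 1 of 10 liver, 3 of 9 erythroid and 10 of 12 spermatid markers were called lower and 0 of 6 mesonephros markers were called. The part of these cells in the fall of the 5 genes was not tested.

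The other 5 genes did not pass in these 4 libraries. Bcl2 had a log2 fold change of 0.29 (adjusted p = 0.135 in edgeR's test, 95% interval -0.01 to 0.59) and Bid one of -0.24 (adjusted p = 0.155). Mcl1, Bcl2l11 and Pmaip1 had log2 fold changes of -0.09, 0.06 and -0.22 (adjusted p = 0.472, 0.708 and 0.674). Leaving out 1 of these 4 libraries leaves a group with a single library, which is then assumed to vary like the other group. For this reason only fold changes are given for these fits. The log2 fold change ran from -0.825 to -0.77 for Bax, from -0.79 to -0.52 for Bad and from -1.35 to -1.04 for Bbc3. It ran from -0.58 to -0.33 for Bcl2l1, from -0.44 to -0.31 for Bak1 and from 0.17 to 0.42 for Bcl2.

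**Figure D2:**
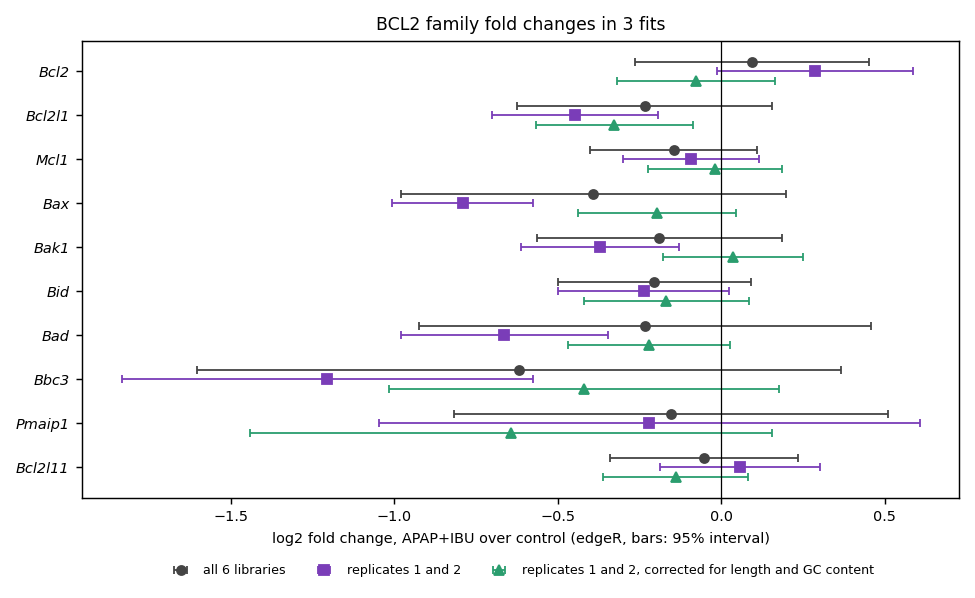
Log2 fold change of APAP + IBU over control for the 10 genes in 3 edgeR fits, with 95% intervals: all 6 libraries (grey circles), replicates 1 and 2 (purple squares), and replicates 1 and 2 corrected for length and GC content (green triangles). Bax, Bad, Bbc3, Bcl2l1 and Bak1 lie clear of 0 in the second fit, and Bak1 moves from -0.37 to 0.04 in the third.

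The 5 genes that fell had the 5 most GC-rich transcripts of the 10, from 53.9% GC in Bcl2l1 over 57.3% in Bak1, 58.6% in Bad and 59% in Bax to 67.1% in Bbc3. The other 5 ran from 41.6% in Pmaip1 over 45.7% in Bcl2, 48.9% in Bcl2l11 and 51.2% in Mcl1 to 51.3% in Bid. Across the 10 genes, which share the same 4 libraries and are not independent replicates, the log2 fold change and the GC content had Pearson's r = -0.867 and Spearman's rho = -0.915. Across all genes tested with a GC content (n = 20567) the values were -0.364 and -0.472. Of the 2057 genes richest in GC (57.7% and above), which include Bad, Bax and Bbc3, 29% were called lower and 0.924% higher. Of the 2058 poorest (41.8% and below) 1.6% were called lower and 38.9% higher.

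After the 4 libraries were corrected for length and GC content, 0 of the 10 genes passed, against 13.2% of all genes tested (2715 genes, 7.54% lower and 5.62% higher). Bcl2l1 was the 1 gene of 10 with an unadjusted p under 0.05 (30.7% of all genes), with a log2 fold change of -0.33 (adjusted p = 0.0733 in edgeR's test, 95% interval -0.57 to -0.09). Bax stood at -0.20 (adjusted p = 0.252, 95% interval -0.44 to 0.05), Bad at -0.22 (adjusted p = 0.208), Bbc3 at -0.42 (adjusted p = 0.318) and Bak1 at 0.04 (adjusted p = 0.83). The interval of Bax no longer reached the -0.79 of the uncorrected counts, and across the 10 genes r with GC content was 0.0997. Corrected Bax levels were 49, 57.2 and 50.3 CPM in controls and 46.8, 45.5 and 53.2 CPM after exposure, so that control replicate 3 no longer lay below the other controls. A correction of this kind also removes a change that follows GC content for another reason, and these cannot be told apart in 4 libraries.

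**Figure D3:**
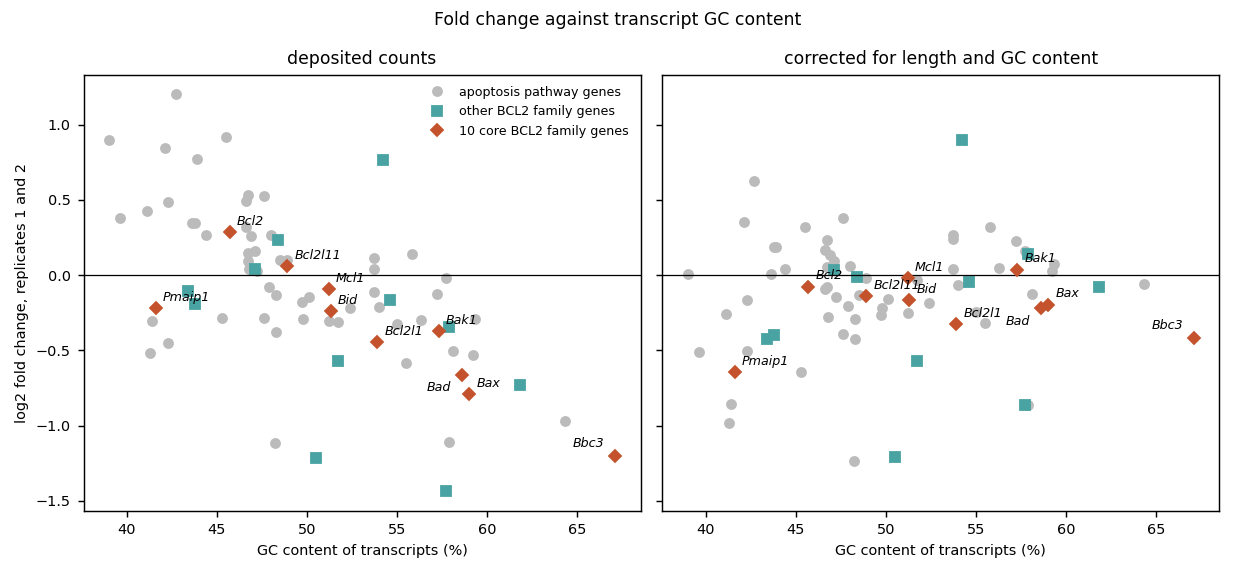
Log2 fold change in replicates 1 and 2 against transcript GC content (%) for the 10 genes (labelled diamonds), 11 other BCL2 family genes (squares) and 54 apoptosis pathway genes (grey circles), from the deposited counts (left) and after correction for length and GC content (right). The diamonds fall from left to right, down to -1.21 for Bbc3 at 67.1%, and this slope is absent after the correction.

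The balance of Bcl2 to Bax, often read as a sign of how ready a tissue is for apoptosis, followed the same division of the libraries. Per kilobase, the controls had a Bcl2 to Bax ratio of 0.0663, 0.0791 and 0.161 (replicates 1, 2 and 3) and the exposed ovaries one of 0.163, 0.144 and 0.0925. Control replicates 1 and 2 and exposed replicate 3 were low, and the other 3 libraries were high, so the groups overlapped. After the correction the ratio was 0.114, 0.106 and 0.106 in controls and 0.121, 0.118 and 0.0999 after exposure. The spread over the 6 libraries was much smaller, and the lowest and the highest library were both exposed.

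**Figure D4:**
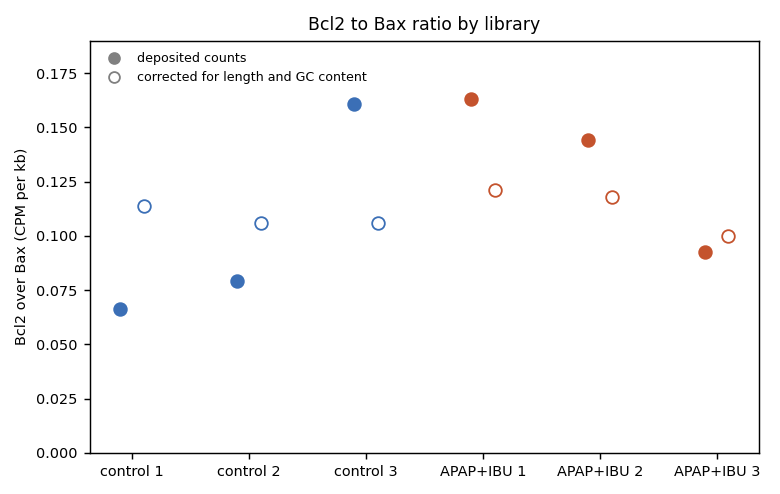
Ratio of Bcl2 to Bax (both in CPM per kb of exon) in each control (blue) and APAP + IBU (orange) library, from the deposited counts (filled) and after correction for length and GC content (open). The filled points run from 0.0663 to 0.163 and the open points from 0.0999 to 0.121.

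The summed level of the 3 survival genes over the 2 effectors, per kilobase, was high and low in the same libraries. It was 0.994, 1.09 and 1.73 in controls and 1.48, 1.42 and 1.18 after exposure. After the correction it was 1.34, 1.26 and 1.34 in controls and 1.29, 1.32 and 1.2 after exposure, with the groups overlapping.

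For the 3 of the 10 genes that varied most over the 6 libraries, Bbc3, Bad and Bax, genes of like pattern were sought. Among 16061 tested genes with a mean of at least 1 CPM, likeness was the root mean square difference of centred log2 CPM, and Gnb2, a G protein subunit, was the second nearest to Bad, at 0.0297. For Bax the nearest were Pcyox1l (0.038) and Sh3bgrl3 (0.0383), and for Bbc3 Gm13436 (0.0558) and Akr7a5 (0.0561). Gnb2 was at 301, 244 and 128 CPM in controls and at 161, 174 and 222 CPM after exposure. That it was high and low in the same libraries as Bad follows from how it was chosen.

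Of 15 further BCL2 family genes, 11 passed the expression filter. Bcl2a1a, Bcl2a1b, Bcl2a1d and Bcl2l10 did not, with at most 0.547 CPM in any library, and the first 3 are near-identical copies among which reads may be split. With all 6 libraries 0 of 11 passed edgeR's test and 1 had an unadjusted p under 0.05 (6.22% of all genes tested). DESeq2 gave the same counts, against 0.952% of all genes called and 7.64% with an unadjusted p under 0.05. That gene was Bcl2l14, a family member of low abundance, at 0.944, 0.669 and 0.99 CPM in controls and 0.355, 0.328 and 0.26 CPM after exposure. All 3 exposed libraries lay below the controls, with a log2 fold change of -1.45 (SE 0.35, adjusted p = 0.348 in edgeR's test). Bmf, a BH3-only gene tied to the cytoskeleton, also had no overlap, with 57.8, 62.4 and 56.9 CPM in controls and 56.7, 48.7 and 56.2 CPM after exposure. Its groups almost touched, at 56.9 and 56.7 CPM, and its log2 fold change was -0.13 (adjusted p = 0.737 in edgeR's test). These were 2 of the 11 genes, whereas all exposed libraries lay below all controls for 5.92% of all genes tested.

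Of these 11, 3 passed in replicates 1 and 2, Bcl2l2 higher and Bok and Bik lower, a share close to the 27.2% of all genes tested. Bcl2l2 encodes the survival protein BCL-W, and it was at 28.9, 33.8 and 43.8 CPM in controls and at 55.5, 49.8 and 37.9 CPM after exposure. Its log2 fold change in these 4 libraries was 0.77 (SE 0.124, adjusted p = 0.00785 in edgeR's test). It was the one family gene called in replicates 1 and 2 that also passed after the correction, at 0.90 (SE 0.122, adjusted p = 0.0109). Of the 11, 1 was called higher and 1 lower after the correction, against 13.2% of all genes tested. The transcripts of Bcl2l2 hold 54.2% GC. When all 6 libraries were fitted, Bcl2l2 had a log2 fold change of 0.43 (adjusted p = 0.692), and control replicate 3 lay above exposed replicate 3.

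Bok, an effector-like gene known from the ovary, was at 33.4, 32.6 and 18.2 CPM in controls and at 22, 17.1 and 27.1 CPM after exposure. Its log2 fold change in replicates 1 and 2 was -0.73 (adjusted p = 0.0146 in edgeR's test), and -0.08 (adjusted p = 0.802) after the correction. Bik, a BH3-only gene of the endoplasmic reticulum, had log2 fold changes of -1.43 (adjusted p = 0.026) and -0.86 (adjusted p = 0.11) in these fits. Bnip3l, a mitophagy receptor, passed after the correction alone, with -0.42 (adjusted p = 0.0224). The other tested family genes, Bcl2l12, Bcl2l13, Bcl2l15, Bnip3 and Hrk, did not pass in any of these fits.

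Of 56 apoptosis pathway genes outside the family, 54 passed the expression filter, and the ligands Fasl and Tnf did not. With all 6 libraries 0 of 54 passed edgeR's test and 1, Kitl, had an unadjusted p under 0.05 (6.22% of all genes tested). DESeq2 called 0 (0.952% of all genes) and had 3 under that limit (7.64%). In replicates 1 and 2, 20 of 54 passed (12 higher and 8 lower), a share to be set against 27.2% of all genes tested. After the correction 6 of 54 passed (1 higher and 5 lower), against 13.2%.

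**Figure D5:**
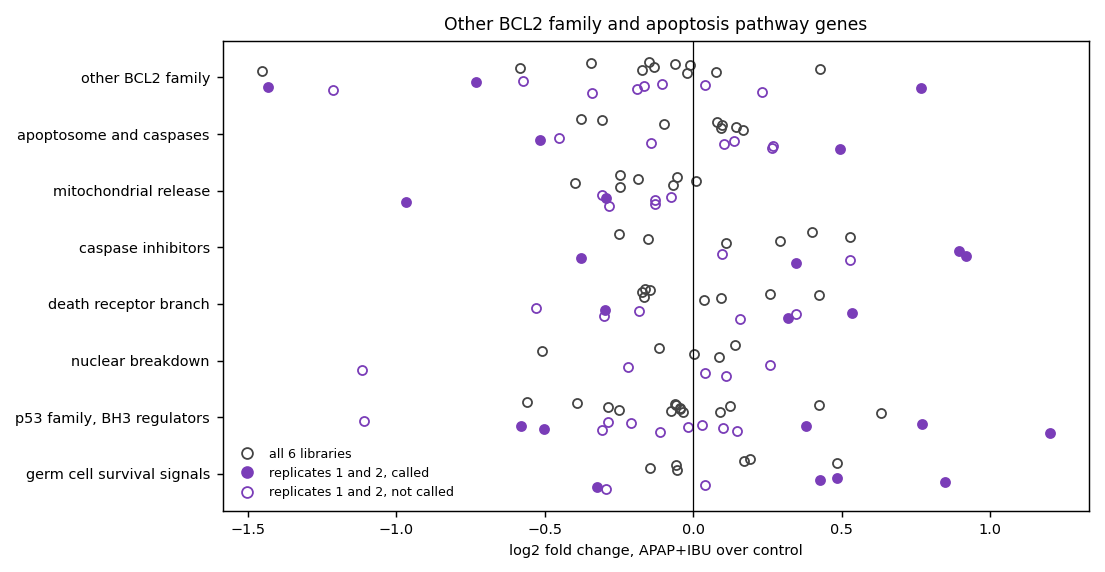
Log2 fold change of APAP + IBU over control for other BCL2 family genes and 7 groups of apoptosis pathway genes, in all 6 libraries (grey, 0 called) and in replicates 1 and 2 (purple, filled where the adjusted p was under 0.05). The caspase inhibitors reach 0.92 (Birc6) and the mitochondrial release genes reach -0.97 (Endog) in replicates 1 and 2.

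Downstream of the effectors, the 7 genes of mitochondrial release had negative log2 fold changes in replicates 1 and 2, and 2 of 7 passed, close to the 27.2% of all genes tested. Endog, a nuclease released from mitochondria, had a log2 fold change of -0.97 (adjusted p = 0.0375 in edgeR's test) and Vdac1, a channel of the outer membrane, one of -0.29 (adjusted p = 0.042). After the correction neither passed (-0.06 and -0.22), and 2 other genes of the group did (13.2% of all genes tested), Vdac3 at -0.86 (adjusted p = 0.0128) and Aifm1, the apoptosis-inducing factor, at -0.39 (adjusted p = 0.0497).

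Of the 8 apoptosome and caspase genes, 1 rose and 1 fell in replicates 1 and 2, close to the share of all genes tested (27.2%). Cycs, the cytochrome c that nucleates the apoptosome, was at 55.7, 54.8 and 45.7 CPM in controls and at 36.4, 39.9 and 49.9 CPM after exposure. Its log2 fold change was -0.51 (adjusted p = 0.0121 in edgeR's test) in replicates 1 and 2 and -0.98 (adjusted p = 0.0106) after the correction, and -0.31 (adjusted p = 0.692) over all 6 libraries. Apaf1, the scaffold that binds cytochrome c, rose by 0.49 on the log2 scale in replicates 1 and 2 (adjusted p = 0.0122) and stood at 0.17 (adjusted p = 0.251) after the correction. Cycs belongs to a family with many processed copies in the genome, so its counts are uncertain.

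The caspase inhibitors held 3 genes that rose and 1 that fell among 6 in replicates 1 and 2 (14.2% of all genes tested were higher and 12.9% lower). Birc6, a giant ubiquitin ligase, and Xiap, which blocks caspases directly, had log2 fold changes of 0.92 (adjusted p = 0.00632 in edgeR's test) and 0.90 (adjusted p = 0.00623), and Birc2 passed at 0.35. After the correction these stood at 0.32, 0.01 and 0.01, and none of the 3 passed. Birc5, the survivin gene with a role in mitosis, fell in both fits, at -0.38 (adjusted p = 0.0211) and -0.43 (adjusted p = 0.027).

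In the death receptor branch, which meets the mitochondrial pathway at Bid, 2 of 8 tested genes rose and 1 fell in replicates 1 and 2, against 27.2% of all genes tested. Ripk1, the kinase below the TNF receptor, had a log2 fold change of 0.53, Cflar, the FLIP gene that holds caspase-8 back, one of 0.32 and the receptor gene Tnfrsf1a one of -0.30 (adjusted p = 0.0163, 0.0344 and 0.0443 in edgeR's test). None of the 8 passed after the correction. Of the 5 nuclear breakdown genes 0 passed in any of these fits.

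The p53 family and the regulators of BH3-only genes held 14 tested genes, of which 3 rose and 2 fell in replicates 1 and 2, against 27.2% of all genes tested. Atm, the DNA damage kinase, was the most changed called gene of them in replicates 1 and 2, with 50.5 and 64.4 CPM in controls and 123 and 137 CPM after exposure. Its log2 fold change was 1.20 (adjusted p = 0.00623 in edgeR's test), and 0.63 (adjusted p = 0.0142) after the correction, while control replicate 3 had 106 CPM and exposed replicate 3 had 82.2 CPM. Mdm4, an inhibitor of p53, also rose (0.77, adjusted p = 0.00695), as did the kinase gene Mapk8 (0.38, adjusted p = 0.0245), while E2f1 and Jun fell (-0.50 and -0.58, adjusted p = 0.0186 and 0.0201). After the correction Mapk8 passed in the opposite direction (-0.51, adjusted p = 0.0202), and Mdm4, E2f1 and Jun did not pass.

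Trp53 itself was at 131, 115 and 112 CPM in controls and at 104, 106 and 133 CPM after exposure, and did not pass in any of these fits. Its targets Bbc3, Pmaip1 and Bax are known to carry p53 sites. The p53 half-site consensus, searched on both strands of the 300 bases around each RefSeq start (250 before and 50 after, GRCm38.p6), occurred once in the Bax window at chr7:45466849-45467148 on the minus strand and in no other window of the 9 genes examined, Pmaip1 not being among them. Of 32851 windows of all genes 8.36% held a match, so a single match is common, and these windows leave out sites in introns and farther upstream.

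Of the 6 germ cell survival signals, 3 rose and 1 fell in replicates 1 and 2 (27.2% of all genes tested passed). Kitl, the KIT ligand that supports germ cells, was at 244, 276 and 371 CPM in controls and at 435, 488 and 325 CPM after exposure, a log2 fold change of 0.85 in replicates 1 and 2 (adjusted p = 0.00625 in edgeR's test) and 0.35 (adjusted p = 0.0727) after the correction. Pik3ca, the catalytic subunit of PI3 kinase, rose in replicates 1 and 2 (0.43, adjusted p = 0.0281), and Akt2, which can phosphorylate BAD, fell (-0.32, adjusted p = 0.0449). After the correction none of the 6 passed, and Pik3ca stood at -0.26.

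Bax shares 192 exonic bases with Gm45808 on the same strand, and Bcl2l2 shares 594 with Gm20521, so strand cannot separate those reads. Some of the 10 genes share bases with a neighbour on the other strand. The strand setting of the read counting is not given in the sources used here, so such reads cannot be told apart. Bid and Bcl2l13 share 628 exonic bases, Bad and Gpr137 share 524, and Bak1 shares 437 with Ggnbp1. Bcl2 shares 558 with D630008O14Rik, which had at most 0.0781 CPM. That low level does not show how many Bcl2 reads the overlap affects. Gpr137 was at 35.2, 27.6 and 17.5 CPM in controls and at 22.9, 23.5 and 28.3 CPM after exposure. It was highest and lowest in the same libraries as Bad, and the part of shared reads in this was not tested. The shared bases leave the values of Bad uncertain.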

How the data were processed

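The 6 stranded mRNA libraries came from pooled 13.5 dpc ovaries. Reads were mapped by the authors to mm10 with TopHat2 2.0.14 and Bowtie2 2.1.0, counted with HTSeq 0.6.1 on Ensembl 86 genes, and deposited as raw counts per gene without normalisation. Groups and replicate numbers follow the sample labels, and the count columns were matched to the sample titles. The counts were tested in edgeR 4.0.16 under R 4.3.3 (TMM normalisation, expression filter, quasi-likelihood test) with Benjamini-Hochberg adjustment over all tested genes, with a call at an adjusted p under 0.05. Levels are CPM. DESeq2 1.42.0 was an alternative. GENCODE M21 on GRCm38 gave transcript lengths and GC content, and the correction was a loess fit (span 0.3) in each library, entered as offsets. Pools of one group differed by more than sampling noise (chi-square per degree of freedom 18.8 to 158), so none was counted as a duplicate. The p-values set the difference between groups against the spread between pools. Each pool joined gonads from different dams, so the variation between dams was not measured.

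The 10 genes, the gene lists and the fit to replicates 1 and 2 were chosen with earlier results of these data known. An earlier analysis had traced the study's own fold changes to these 4 libraries, although the methods list 3 pools per group, and this was not checked here. Genes named are the 10, the tested members of the other BCL2 family list, and per pathway list the up to 2 called genes of each direction with the largest change in replicates 1 and 2. For the 3 of the 10 with the largest SD of log2 CPM, the 2 genes of nearest pattern are named. One gene under each of these last rules is not reported here. Mapk8, Birc2, Pik3ca, Vdac3, Aifm1 and Trp53 were named after their values were seen. Promoter windows came from RefSeq, and one erythroid marker symbol had no match. The methods were tested on simulated data. The simulated counts held no GC shift between libraries, so they cannot show how the correction handles one.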

Additional observations from a re-analysis of the deposited data

How the results depend on the processing

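With all 6 libraries, the count of 0 called genes among the 10 held under DESeq2, other scalings, other filters, the length and GC correction and the loss of any single library. It was 5 in replicates 1 and 2. The other BCL2 family genes went from 0 to 3 in replicates 1 and 2 and to 2 there with the correction, a setting chosen after seeing the data. The pathway genes went from 0 to 20 and 6 in these settings. Leaving out 1 library gave 0 to 4, with 4 (Birc6, Xiap, Atm and Mdm4) without control replicate 3. The share of all genes called in that fit is not given, so the count of 4 cannot be set against it. In replicates 1 and 2, the 5 called genes of the 10 became 0 with the correction, 0 with the replicate block and the correction, and 2 to 6 when 1 library was left out. The 20 pathway calls became 11 with the replicate block, 6 with the correction, 5 with both, and 8 to 24 when 1 library was left out (8 without exposed replicate 1, 11 without control replicate 1, 24 without control replicate 2). Fewer libraries are tested when 1 of these 4 is left out, and 1 group then holds a single library. The share of all genes called in those fits is not given. Their counts for the 10 genes and the pathway genes cannot be set against it, and no conclusion is drawn from them.

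The replicate number was not used to pair the pools in the main fits, since the labels give no shared litter or day. The deviations of same-numbered libraries had correlations of -0.069, -0.015 and -0.044. These values cannot show whether same-numbered pools shared an experiment. Both libraries labelled replicate 3 were high in summed liver markers (1890 CPM in the control and 3060 CPM in the exposed library). With the block, 4 of the 10 genes were called in replicates 1 and 2, with Bak1 lost, and 0 in all 6 libraries. The share of all genes called with the block is not given. These counts and those of the pathway genes with the block cannot be set against it.

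Log2 fold changes over the 6 libraries changed sign as follows, and the cause was not tested. With the length and GC correction, without and with the block, Bcl2 stood at -0.055 and -0.054, Bcl2l12 at 0.22 and 0.23, Bnip3 at 0.021 and 0.021, Endog at 0.10 and 0.10, Xiap at -0.018 and -0.014, Cflar at -0.077 and -0.075, Tnfrsf1a at 0.0044 and 0.0042, Mapk8 at -0.33 and -0.33, Birc2 at -0.045 and -0.048, and Pik3ca at -0.17 and -0.17, while Bcl2l13 turned with the block and the correction together (-0.00050) and Bcl2l12 with the replicate block alone (0.034). In replicates 1 and 2, Bcl2l11 stood at 0.059 and Bnip3 at 0.040. With the correction there, Bcl2 stood at -0.076, Bak1 at 0.036, Bcl2l12 at 0.14, Bcl2l13 at -0.011, Bnip3 at 0.032, Cflar at -0.091, Tnfrsf1a at 0.046, Mapk8 at -0.51 and Pik3ca at -0.26. Without a filter on low counts Bnip3 stood at 0.0030. Leaving out 1 library gave ranges of -0.0047 to 0.19 for Bcl2, -0.51 to 0.031 for Bad, -0.30 to 0.054 for Pmaip1, -0.11 to 0.017 for Bcl2l11, -0.39 to 0.25 for Hrk, -0.27 to 0.23 for Bcl2l12, -0.025 to 0.24 for Bcl2l13, -0.052 to 0.015 for Bnip3, -0.77 to 0.099 for Endog and -0.21 to 0.0067 for Trp53. None of these genes passed the test in the fit to all 6 libraries. Bbc3, with 63 to 169 reads per library, had the widest interval of the 10 genes in that fit.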
